A study of Mus musculus with 12 samples.

Results

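RNA of microglia from the cerebellum was compared with RNA of microglia from the forebrain, both kept in the growth factor CSF-1. The comparison rests on the 3 cerebellar and the 3 forebrain libraries with CSF-1, 6 of the 12 libraries in the series, taken by their labels and used for all genes. Microglia are the resident macrophages of the brain. Here they were primary cells of wild-type (WT) mice, obtained from mixed glial cultures of either region and then held for 24 hours with CSF-1 at 20 ng/ml. The design text speaks of independent cultures, the deposited table is named as one of neonatal microglia, and the labels give neither an age of the animals nor how many were pooled for a culture. The other 6 libraries, 3 from each region, came from cells given IL-34 at 100 ng/ml over the same time. They serve here to see whether a regional difference was also present with another ligand. They also entered the filter on low values and the estimate of spread behind each p-value of the CSF-1 comparison. No group went without a ligand.

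CSF-1 and IL-34 both signal through the receptor tyrosine kinase encoded by Csf1r, which microglia need to survive. Microglia of different brain regions are known to differ in their gene expression, and cerebellar microglia have been described as more clearance-active and more immune-vigilant than those of the forebrain. Cultured microglia lose part of their tissue profile, and a mixed glial culture also holds astrocytes, oligodendrocyte lineage cells and cells of the meninges and vessels, whose RNA can enter a library. The comparison asks which regional differences remain when cells of both regions have been kept with the same ligand.

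Expression is given as TPM, the share of a library's transcripts that belongs to a gene after correction for transcript length, on a scale where each library totals 1000000. How many reads stand behind a value cannot be read from it. In each of the 6 libraries 11749 to 11899 genes reached 1 TPM. Pearson's r across genes lay between 0.972 and 0.987 for the 6 pairs of libraries of the same region and between 0.967 and 0.983 for the 9 pairs of different regions. Genes do not count as replicates of each other, so these correlations only describe the libraries. Short transcripts were recovered unevenly. The length below which 1 percent of a library's transcripts at 5 TPM or more fell was 592 to 661 nt in the cerebellar and 598 to 669 nt in the forebrain libraries, so it did not separate the regions. It was highest in cerebellum replicate 1 and forebrain replicate 3, and counts without that pair are given below.

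The 6 libraries had the transcripts of microglia. The summed level of 15 markers of microglia and macrophages was 13543 to 14625 TPM in cerebellum and 13734 to 14609 TPM in forebrain. Of the 15, 14 were at 1 TPM or more in each library. The other was the adaptor gene Tyrobp, with a mean transcript length of 588 nt, which was listed at 0 in cerebellum replicate 1 and forebrain replicate 3 and at 770.2 to 1088 TPM in the other 4 libraries. Csf1r was measured at 1325, 1328 and 1250 TPM in the cerebellar libraries and at 1128, 1234 and 1246 TPM in the forebrain libraries (log2 difference 0.11, SE 0.06, limma adjusted p = 0.261). Trem2, the lipid-sensing receptor of microglia, had a log2 difference of 0.10 (adjusted p = 0.256). The receptor gene P2ry12 and the transcription factor gene Sall1, which mark microglia in the intact brain, had low levels. P2ry12 was at 9.64, 7.47 and 8.08 TPM in cerebellum and at 11.4, 10.1 and 9.93 TPM in forebrain. Csf1 was at 10.1, 9.23 and 9.39 TPM in cerebellum and at 11.3, 12.1 and 12.9 TPM in forebrain (log2 difference -0.31, adjusted p = 0.302). Il34 was at most 0.222 TPM in the 6 libraries and was not tested.

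Markers of other cells of the brain were low, and some differed between the regions. The 15 astrocyte markers summed to 19.8 to 22.2 TPM in cerebellum and 33.4 to 35.2 TPM in forebrain, and 4 of the 8 that could be tested were lower in cerebellum, namely Gfap, Gja1, Aldoc and Sox9 (1 or 2 without any single CSF-1 library), while Ntsr2 was listed at 0 throughout. The 14 markers of forebrain-patterned astroglia summed to 1.17 to 2.31 TPM in cerebellum and 3.45 to 4.90 TPM in forebrain. Among them, the forebrain transcription factor gene Lhx2 was at 0.0227 ± 0.0199 TPM in cerebellum and 0.836 ± 0.701 TPM in forebrain (mean ± SD, n = 3, as below). Otx2 of the same list went the other way, at 0.451 ± 0.462 TPM in cerebellum and 0.0161 ± 0.0279 TPM in forebrain, as did Pax6, at 0.665 ± 0.319 and 0.454 ± 0.273 TPM, and neither these nor Lhx2 could be tested. The 26 hindbrain and cerebellar patterning genes summed to 6.48 to 8.37 TPM in cerebellum and 5.31 to 5.40 TPM in forebrain, with 25 of them under 1 TPM in each library, and Atoh1, Ptf1a and En1 were at 0 in both regions. The 11 markers of choroid plexus and ependyma, the epithelia that face the ventricles, summed to 24.5 to 41.7 TPM in cerebellum and 2.75 to 4.03 TPM in forebrain. The 16 markers of the oligodendrocyte lineage summed to 168 to 176 TPM in cerebellum and 132 to 154 TPM in forebrain. Myelin basic protein gene Mbp (log2 difference 0.78) and Mobp (0.93) were higher in cerebellum, Olig1 was lower (-0.85), and Mog, Cldn11 and Gpr17 had means of at most 0.164 TPM in either region. Markers of fibroblasts, pericytes and smooth muscle summed to 83.9 to 96.0 TPM in cerebellum and 82.8 to 103 TPM in forebrain, most of it from Fn1, with the contractile genes Acta2, Tagln and Cnn1 and the binding protein gene Igfbp5 lower in cerebellum. The 17 markers of granulocytes, monocytes and mast cells were each under 1 TPM in every library. In bulk RNA, fewer cells of a type and less RNA per cell cannot be told apart.

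**Figure D1:**
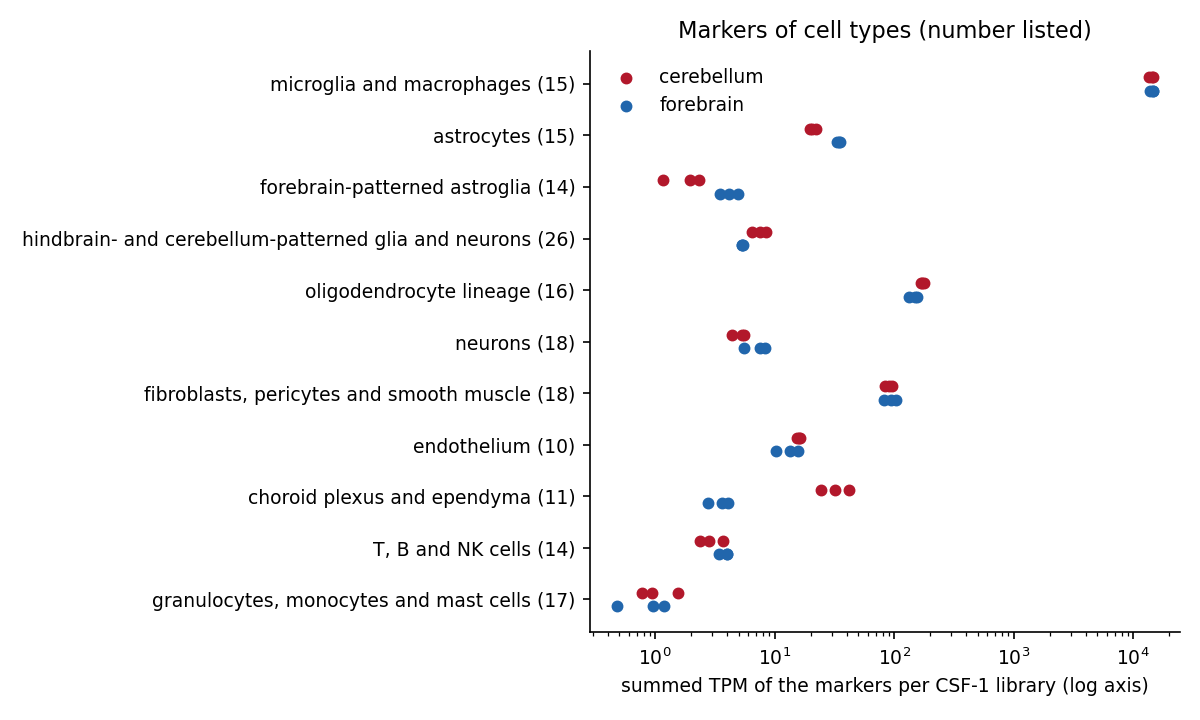
Summed TPM of cell type markers in each of the 3 cerebellar (red) and 3 forebrain (blue) libraries with CSF-1, on a log axis, with the number of markers listed in brackets. Each point is a library, and erythroid markers, mostly at 0, are not drawn. Microglia and macrophage markers have overlapping sums in both regions, the astrocyte sums are lower in cerebellum, and the choroid plexus and ependyma sums are higher there.

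Across 12419 genes, 833 passed limma's test between the regions with CSF-1 at a Benjamini-Hochberg adjusted p under 0.05, which is 6.71% of those tested. Of these, 408 genes (3.29%) were higher and 425 genes (3.42%) were lower in cerebellum, and 2839 genes had an unadjusted p under 0.05. Most differences were modest. The median absolute log2 difference of the 833 genes was 0.49, and 92 genes differed by over 2-fold, 27 of them higher and 65 lower in cerebellum. The median over all genes tested was 0.03. The direction of the calls went with transcript length. Among 4318 genes with a mean transcript length of 3000 nt or more, 217 were higher and 88 lower in cerebellum, while among 2356 genes from 800 up to 1500 nt, 32 were higher and 118 lower. When each library's trends of length and GC content were removed, 1044 genes passed, 422 higher and 622 lower, of which 716 were among the 833. With median-of-ratios scaling 460 were higher and 642 lower. The count depended on single libraries. It was 502 and 413 without cerebellum replicates 1 and 2, 441 and 535 without forebrain replicates 1 and 3, and 297 without the pair of libraries with the highest length floor.

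**Figure D2:**
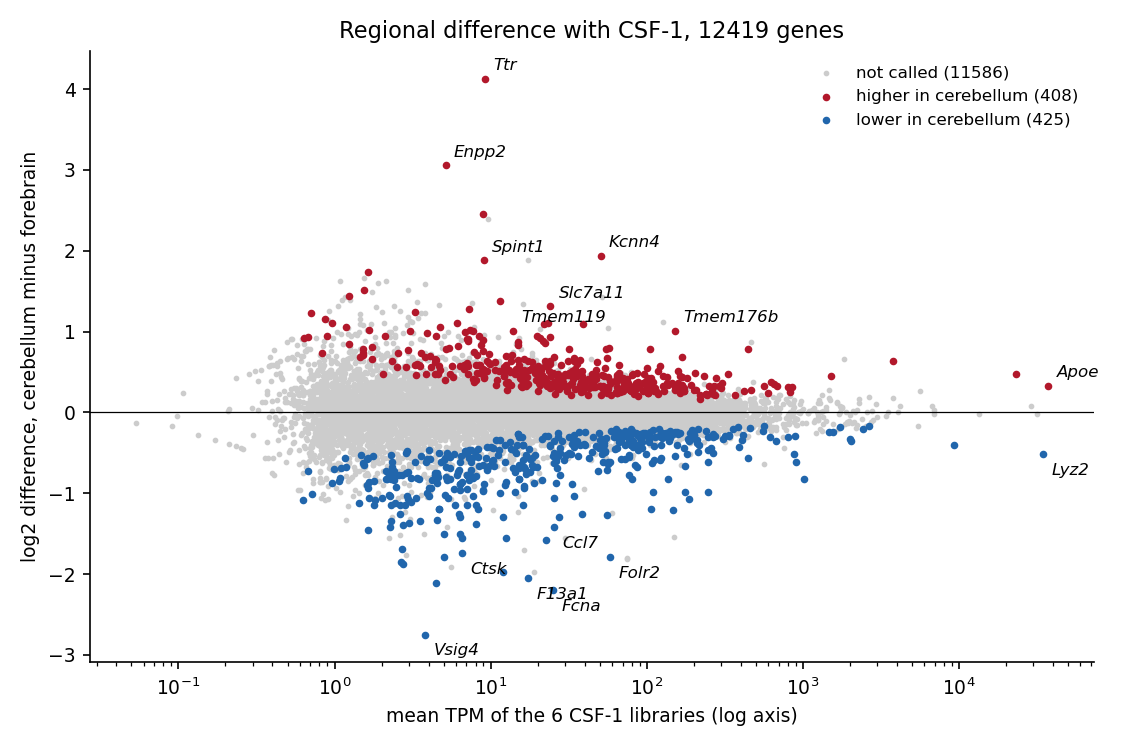
Regional log2 difference (cerebellum minus forebrain, on the log2 scale of TPM + 1) against the mean TPM of the 6 CSF-1 libraries on a log axis, each point a gene. The 408 genes higher in cerebellum are red and the 425 lower are blue. Ttr and Enpp2 stand at the top and Vsig4 at the bottom.

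By log2 difference, the genes with the largest losses in cerebellum were Vsig4, Fcna, Igfbp3, F13a1 and Ppic, in that order. Vsig4, the gene of a macrophage receptor for complement C3 fragments (ENSMUSG00000044206, GRCm38 chromosome X, 96247203 to 96293438, minus strand), was at 0.298, 0.161 and 0.195 TPM in the cerebellar libraries and at 9.68, 6.83 and 5.60 TPM in the forebrain libraries. Vsig4 was thus under 1 TPM in each cerebellar library and at least 5.60 TPM in each forebrain library, with a log2 difference of -2.75 (SE 0.20, adjusted p = 2.23e-05). All log2 differences here are on the log2 scale of TPM + 1, which understates the change of low genes, and the ratio of the mean TPM of Vsig4 was 33.8.

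Fcna encodes ficolin A, a soluble lectin that starts the lectin pathway of complement (ENSMUSG00000026938, chromosome 2, 25624666 to 25628030, minus strand). It was at 8.25, 7.34 and 9.50 TPM in cerebellum and at 41.8, 41.1 and 42.8 TPM in forebrain (log2 difference -2.20, SE 0.16, adjusted p = 2.23e-05). F13a1, the A subunit of coagulation factor XIII (ENSMUSG00000039109, chromosome 13, 36867178 to 37050244, minus strand), was at 6.03, 5.76 and 6.78 TPM in cerebellum and at 27.3, 30.1 and 28.7 TPM in forebrain (-2.05, SE 0.10, adjusted p = 1.48e-06). Folr2 encodes folate receptor beta, a surface marker of macrophages at the borders of the brain (ENSMUSG00000032725, chromosome 7, 101839988 to 101857194, minus strand). Its level was 25.9, 25.9 and 24.7 TPM in cerebellum and 93.9, 85.9 and 92.8 TPM in forebrain (-1.79, SE 0.07, adjusted p = 1.34e-07). For each of the 3 genes the libraries of a region lay close together and far from those of the other region. Exons of Fcna and Folr2 overlap the antisense genes Fcnaos and Gm10602. The library kit does not mark the strand, so the reads of such pairs cannot be told apart. The same limit holds for other named genes that overlap exons of the other strand. Among them are Adgre5 (Ddx39), Pilra (Zcwpw1), Ch25h (Gm26902), Sqstm1 (3010026O09Rik), Gclm (Gm17494) and Csf1r (Hmgxb3).

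Ctsk, the gene of the collagen-cleaving protease cathepsin K, was at 2.17, 2.95 and 2.32 TPM in cerebellum and at 12, 9.38 and 10.5 TPM in forebrain (log2 difference -1.74, adjusted p = 0.000113). The tissue factor gene F3, which starts coagulation, had a log2 difference of -1.55. Pilra, an inhibitory receptor gene with close relatives among which reads may be split, had -1.55. The adhesion receptor gene Adgre5, which encodes CD97, and Ica1 each had -1.50. Ppic, a peptidyl-prolyl isomerase gene, had -1.98, and Vill, the gene of a villin-like protein, had -1.79.

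Igfbp3 and Cav1 were also among the 15 genes with the largest losses. Igfbp3, the gene of a binding protein for insulin-like growth factors, was at 1.18, 1.32 and 0.677 TPM in cerebellum and at 8.80, 6.74 and 7.96 TPM in forebrain (log2 difference -2.11, adjusted p = 2.74e-05). Cav1, the gene of caveolin-1 in membrane pits, was at 12.1, 9.44 and 10.9 TPM in cerebellum and at 31.6, 30.8 and 41.0 TPM in forebrain (-1.58, adjusted p = 2.66e-05). Absence of overlap between the regions was a condition for naming these genes. It also occurred in genes that did not pass, such as P2ry12 and Trem2. The astrocyte markers and Acta2 (-1.20), Tagln (-0.84) and Cnn1 (-1.08) moved in the same direction, and their part in these results was not tested.

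On the other side, 2 genes stood apart from the rest. Ttr, which encodes the thyroxine carrier transthyretin and is a defining transcript of choroid plexus epithelium, was at 17.1, 13.4 and 24.7 TPM in cerebellum and at 0.257, 0 and 0 TPM in forebrain (log2 difference 4.13, SE 0.40, adjusted p = 0.000162). Enpp2 encodes autotaxin, the enzyme that makes lysophosphatidic acid (ENSMUSG00000022425, chromosome 15, 54838901 to 54952892, minus strand). It was at 10.8, 6.73 and 12.6 TPM in cerebellum and at 0.346, 0.247 and 0.286 TPM in forebrain (3.06, SE 0.35, adjusted p = 0.000576). Both genes are on the list of choroid plexus and ependyma markers, of which 6 of 11 stayed under 1 TPM in each of the 6 libraries. Kcnj13, Kl and Clic6, further choroid plexus genes, were at 0.408 ± 0.137, 0.359 ± 0.0674 and 0.312 ± 0.148 TPM in cerebellum and at 0.0597 ± 0.0527, 0.0815 ± 0.0364 and 0.0187 ± 0.00298 TPM in forebrain. Folr1 was at 1.02 ± 0.36 and 0.128 ± 0.145 TPM and did not pass (adjusted p = 0.176). Foxj1, a gene of ciliated ependyma, was lower in cerebellum (log2 difference -0.57) and lost this call without any of the 6 CSF-1 libraries. The part of such cells in the levels of Ttr and Enpp2 was not tested.

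Kcnn4, the gene of the calcium-activated potassium channel KCa3.1 of microglia and lymphocytes (ENSMUSG00000054342, chromosome 7, 24370263 to 24386690, plus strand), was at 79.1, 76.8 and 86.9 TPM in cerebellum and at 19.9, 20.6 and 20.6 TPM in forebrain. With a log2 difference of 1.94 (SE 0.07, adjusted p = 1.19e-07) it had the smallest adjusted p among the 30 genes with the largest differences. Slc7a11, the cystine-glutamate exchanger that supplies cysteine for glutathione (ENSMUSG00000027737, chromosome 3, 49892526 to 50443614, minus strand), was at 35.8, 35 and 33.2 TPM in cerebellum and at 12.9, 13.1 and 14.2 TPM in forebrain (1.31, SE 0.07, adjusted p = 1.48e-06). Sorl1 encodes a sorting receptor of the endosome that binds the amyloid precursor protein. It was at 13.9, 23.8 and 13.8 TPM in cerebellum and at 5.34, 5.81 and 6.2 TPM in forebrain (1.38, SE 0.18, adjusted p = 0.00102). Cerebellum replicate 2 was the highest for Sorl1, and the other cerebellar libraries were still above each forebrain library.

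Tmem176a and Tmem176b, neighbouring genes of ion channel-like membrane proteins of antigen-presenting cells, were higher together. Tmem176b was at 200.5, 203 and 207 TPM in cerebellum and at 97.9, 105 and 97.5 TPM in forebrain (log2 difference 1.01, adjusted p = 3.36e-05), and Tmem176a had a log2 difference of 1.09. Their exons overlap on opposite strands of chromosome 6, so their reads cannot be fully told apart. The serine protease inhibitor gene Spint1 had a log2 difference of 1.88, with 20.0, 12.1 and 12.3 TPM in cerebellum and 4.77, 2.47 and 2.69 TPM in forebrain. The Wnt antagonist gene Dkk2 had 1.28, the cytoskeletal guidance gene Nav2 1.09, the membrane scaffold gene Efr3b 1.02 and the extracellular matrix gene Emilin1 1.11. For Tns1, an adhesion gene with a log2 difference of 1.05, cerebellum replicate 3 was at 10.9 TPM and the other cerebellar libraries at 4.98 and 4.77 TPM, against 3.20, 2.18 and 2.45 TPM in forebrain. Tns1 lost its call in 6 of 20 other ways of running the test, and Emilin1 in 1.

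**Figure D3:**
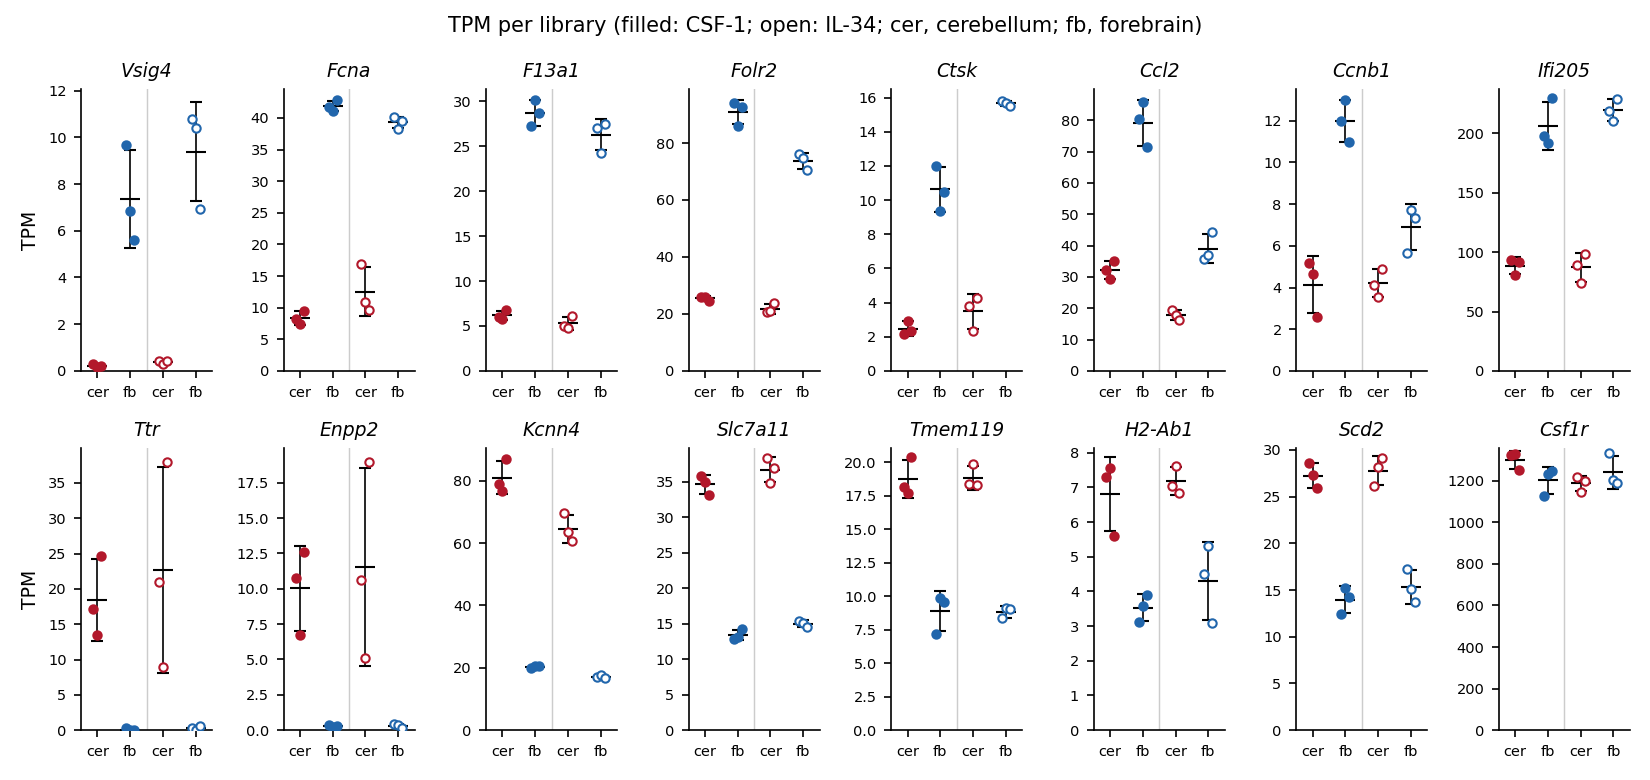
TPM of 16 genes in each of the 12 libraries, with the mean and SD of each group of 3 in black. Red is cerebellum and blue is forebrain. Filled points are libraries with CSF-1 and open points libraries with IL-34. The red and blue filled points do not overlap for any gene shown, which also occurs in genes that did not pass. For Csf1r they nearly meet, and Csf1r did not pass the test.

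Genes of homeostatic microglia, the profile of unstimulated microglia in the brain, were higher in cerebellum where they passed, with 1 exception. Of 25 tested, 5 were higher and 1 was lower, against 3.29% and 3.42% of all genes, the shares against which each list below is read, and the median log2 difference was 0.16. Tmem119, the gene of a membrane protein specific to microglia within the brain (ENSMUSG00000054675, chromosome 5, 113793729 to 113800516, minus strand), was at 18.2, 17.7 and 20.4 TPM in cerebellum and at 7.15, 9.91 and 9.58 TPM in forebrain (log2 difference 1.01, SE 0.11, adjusted p = 0.000376). Slco2b1, an organic anion transporter gene, had 34.3, 31 and 30.8 TPM in cerebellum and 11.8, 15.3 and 16.3 TPM in forebrain (1.11, adjusted p = 0.000744). The zinc finger gene Sall3 (0.57), the ATP-cleaving ectoenzyme gene Entpd1 (0.66) and the transcription factor gene Mef2c (0.51) were the others, and Rhob was lower (-0.34), though 0 were lower without any of the cerebellar replicates or forebrain replicate 2 or 3. P2ry12 (-0.29, adjusted p = 0.189) and Sall1 (0.15, adjusted p = 0.497) did not pass. Without the pair of libraries with the highest length floor, 3 were higher and 0 lower.

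Genes of disease-associated microglia, a state with raised lipid metabolism and phagocytosis genes, moved in both directions. Of 35 tested, 7 were higher and 3 lower in cerebellum, beside 3.29% and 3.42% of all genes, and the median log2 difference was 0.00. Lpl, the gene of lipoprotein lipase, was at 4883, 4499 and 4395 TPM in cerebellum and at 2826, 2923 and 3083 TPM in forebrain (log2 difference 0.64, SE 0.08, adjusted p = 0.000651). The TAM receptor gene Axl, which recognises dying cells, was at 81.0, 78.0 and 74.2 TPM in cerebellum and at 55.0, 55.4 and 54.4 TPM in forebrain (0.49, adjusted p = 0.00139). Apoe, the main lipid carrier of the brain, had the highest mean TPM over the 6 CSF-1 libraries, though Lyz2 was above it in each forebrain library. Apoe was at 44521, 40428 and 39382 TPM in cerebellum and at 32246, 30179 and 36616 TPM in forebrain (0.33, adjusted p = 0.0202). Spp1 (0.47), Cst7 (0.88), Cadm1 (0.36) and Atp6v0d2 (0.42) were higher too. Lyz2, the macrophage lysozyme gene, went the other way, with 28174, 28509 and 28488 TPM in cerebellum and 40245, 39877 and 42068 TPM in forebrain (-0.52, SE 0.04, adjusted p = 3.25e-05). Lyz1, a near-identical neighbour of Lyz2 with which it shares reads, was lower as well (-0.70). Leaving out cerebellum replicate 1 or forebrain replicate 2 gave 4 higher genes, testing without a filter on low values gave 3, and Apoe lost its call in 6 of 20 alternatives.

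Markers of border-associated macrophages, the macrophages of the meninges, perivascular spaces and choroid plexus, were lower in cerebellum where they passed. Of 17 tested, 6 were lower, 0 higher and 11 not called, beside 3.42% of all genes lower, with a median log2 difference of -0.17. F13a1 and Folr2 had the largest differences. Cd38, which encodes an NAD-consuming ectoenzyme, was at 1.03, 0.959 and 1.15 TPM in cerebellum and at 4.09, 2.96 and 3.65 TPM in forebrain (log2 difference -1.15, adjusted p = 0.000347). The lectin gene Clec4n (-0.41), the scavenger receptor gene Cd36 (-0.35) and the mannose receptor gene Mrc1 (-0.34) were the others. The count was 5 or 6 without any single library. The part of such macrophages in these results was not tested.

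Complement genes were lower in cerebellum where they passed. Of 18 complement genes tested, 4 were lower and 0 higher in cerebellum. Beside Vsig4 these were Cfp, C2 and C1qb. Cfp encodes properdin, which stabilises the alternative pathway convertase, and was at 168, 162 and 165 TPM in cerebellum and at 335, 320 and 330 TPM in forebrain (log2 difference -0.99, SE 0.07, adjusted p = 2.23e-05). C2 was at 21.4, 20.9 and 23.6 TPM in cerebellum and at 46.6, 58.9 and 57.9 TPM in forebrain (-1.26, adjusted p = 2.69e-05), with exons that overlap Zbtb12 on the other strand. C1qb, a chain of the first component, differed by -0.17 and lost its call in 12 of 20 alternatives.

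Among 25 genes of clearance and efferocytosis, the uptake of dying cells, 4 were higher and 7 lower in cerebellum. The scavenger receptor genes Msr1 and Marco were among the lower ones. Msr1 was at 730, 691 and 715 TPM in cerebellum and at 1122, 1086 and 1073 TPM in forebrain (log2 difference -0.62, adjusted p = 5.41e-05), and Marco was at 15.2, 15.3 and 14.1 TPM in cerebellum and at 26.6, 24.4 and 31.7 TPM in forebrain (-0.84, adjusted p = 0.00169). Mfge8, a bridging protein gene for phosphatidylserine (-0.69), Scarf1 (-1.02), Abcg1 (-0.61), Cd36 and Mrc1 were the other lower genes. Axl, the integrin gene Itgav (0.48) and the engulfment genes Dock1 (0.39) and Elmo1 (0.26) were higher. The higher count was 2 without cerebellum replicate 1 or 2 or any of the forebrain replicates, each left out in turn.

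Type I interferon response genes were lower in cerebellum where they passed. Interferon-stimulated genes answer signalling from the interferon receptor through transcription factors that bind a shared element in their promoters. Of 48 tested, 11 were lower, 0 higher and 37 not called, beside 3.42% of all genes lower, and the median log2 difference was -0.22. Ifi205, of the family of cytosolic DNA sensors whose members share sequence and may share reads, was at 93.5, 80.4 and 91.5 TPM in cerebellum and at 198, 192 and 229.5 TPM in forebrain (log2 difference -1.21, SE 0.10, adjusted p = 5.98e-05). Ifit3, a gene of the antiviral tetratricopeptide family, was at 340, 312 and 339 TPM in cerebellum and at 427, 438 and 475 TPM in forebrain (-0.43, adjusted p = 0.00347). The other lower genes were Ifit2 (-0.59), Ifit1 (-0.32), Rsad2 (-0.44), Phf11b (-0.51), Phf11d (-0.25), Slfn2 (-0.36), Usp18 (-0.33), Lgals9 (-0.34) and Sp100 (-0.21). Transcripts of 1000 nt or more gave 19 lower genes of 44, and leaving out cerebellum replicate 2, testing without a filter or fitting only the 6 libraries each gave 7.

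The promoters of 3 of these genes are shown, taken from the lower genes in which the interferon-stimulated response element was found. The element was searched as GAAANNGAAA on both strands, in 300 bases from 250 before to 50 after each start in the RefSeq promoters of GRCm38.p6. Capitals mark 1 match per promoter in the strand of the gene, where a match on the other strand reads as its reverse complement, with 30 bases on either side. The window of Ifit1 holds a further match, left in small letters.
Ifit1, chr19:34640774-34640843, plus strand: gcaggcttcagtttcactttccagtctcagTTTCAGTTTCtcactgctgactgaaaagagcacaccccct
Ifit3, chr19:34583377-34583446, plus strand: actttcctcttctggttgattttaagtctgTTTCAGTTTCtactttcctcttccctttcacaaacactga
Rsad2, chr12:26456533-26456602, minus strand: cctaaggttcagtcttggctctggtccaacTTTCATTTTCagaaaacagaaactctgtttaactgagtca

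A match was found in 6 of the 10 lower genes with a promoter in the table, namely Ifit1, Ifit3, Rsad2, Ifi205, Phf11b and Lgals9. It was also found in 17 of the 28 list members that did not pass and had a promoter. Of all 27025 gene symbols with a promoter in the table, 3.99% held it. A match is a description of the letters and no evidence of binding.

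Genes of antigen presentation through MHC class II were higher in cerebellum in part. Of 14 tested, 4 were higher and 1 lower. H2-Ab1, the beta chain of the class II molecule, was at 7.29, 7.57 and 5.60 TPM in cerebellum and at 3.12, 3.59 and 3.89 TPM in forebrain (log2 difference 0.78, SE 0.16, adjusted p = 0.0163). The alpha chain gene H2-Aa was at 1.43, 1.35 and 2.22 TPM in cerebellum and at 0.225, 0 and 0.538 TPM in forebrain (1.10, adjusted p = 0.0407). Cd74, the invariant chain gene (0.31), and Cd274, which encodes PD-L1 (0.22), were higher, and Ifi30, a lysosomal thiol reductase gene, was lower (-0.51). The higher count was 1, 0 and 2 without cerebellum replicates 1, 2 and 3, it was 1, 2 and 2 without forebrain replicates 1, 2 and 3, and it was 0 without the pair with the highest length floor. Among 21 genes of MHC class I presentation, limma called 0, with 3 at an unadjusted p under 0.05 and the smallest adjusted p at 0.0751 for Tap2.

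Chemokine genes were lower where they passed, at 5 of 19 tested against 0 higher. Ccl2, the main attractant of monocytes, was at 32.2, 29.5 and 35.1 TPM in cerebellum and at 80.4, 85.8 and 71.4 TPM in forebrain (log2 difference -1.27, SE 0.11, adjusted p = 5.28e-05). Its neighbour Ccl7, which acts on an overlapping set of receptors, was at 10.5, 16.2 and 13.9 TPM in cerebellum and at 38.8, 39.4 and 33.9 TPM in forebrain (-1.42, adjusted p = 0.000744). Ccl4 (-0.78), Cxcl9 (-0.69) and Cxcl16 (-0.18) were lower too. The count was 3 without any of the cerebellar replicates or forebrain replicate 2, and 2 without forebrain replicate 1.

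Of 35 genes of cytokines and the inflammatory response, 6 were lower and 1 was higher. Lcn2, the siderophore-binding lipocalin, was at 10.9, 9.15 and 8.83 TPM in cerebellum and at 21, 21.7 and 24.6 TPM in forebrain (log2 difference -1.14, adjusted p = 5.81e-05). Ptgs2, the inducible cyclooxygenase gene of prostaglandin synthesis, was the higher one, at 30.5, 29.8 and 27.4 TPM in cerebellum and 16.9, 14.6 and 15.5 TPM in forebrain (0.86, SE 0.08, adjusted p = 9.4e-05). Ptges, the terminal prostaglandin E synthase downstream of cyclooxygenase, was lower (-0.59), as were Il1b (-0.56), Cebpd (-0.45), Tlr2 (-0.32) and Marcksl1 (-0.52). The lower count was 3 without cerebellum replicate 1 or forebrain replicate 3, and 1 without both.

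Receptors for attractants and purines differed at single genes. The formyl peptide receptor gene Fpr1 was at 4.94, 4.60 and 4.22 TPM in cerebellum and at 13.3, 8.82 and 14 TPM in forebrain (log2 difference -1.20, adjusted p = 0.0138). Cmklr1 (-0.55) and Ccr3 (-0.44) were lower and the sphingosine 1-phosphate receptor gene S1pr1 was higher (0.30), among 16 receptors tested. Fpr1 lost its call without forebrain replicate 1 or 3, and 0 receptors passed without forebrain replicate 1. The lower receptors numbered 1 without cerebellum replicate 2 or 3 or forebrain replicate 2 or 3. In purinergic signalling, 4 of 14 genes were lower, namely Cd38, the adenosine kinase gene Adk (-0.43), the adenosine receptor gene Adora2b (-0.69) and the ATP-gated channel gene P2rx7 (-0.42), and Entpd1 was higher. Without the pair with the highest length floor 1 gene of the list was lower.

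Cell cycle genes of G2 and mitosis were lower in cerebellum where they passed. Of 51 tested, 20 were lower, 0 higher and 31 not called, beside 3.42% of all genes lower, with a median log2 difference of -0.56 beside 0.03 over all genes. Ccnb1, the cyclin that drives entry into mitosis, was at 5.17, 4.66 and 2.59 TPM in cerebellum and at 12, 13 and 11 TPM in forebrain (log2 difference -1.38, SE 0.19, adjusted p = 0.00183). Ccnb2 was at 2.36, 2.58 and 1.91 TPM in cerebellum and at 6.02, 4.70 and 5.98 TPM in forebrain (-1.0, adjusted p = 0.0017). Top2a, the topoisomerase that untangles chromosomes, was at 5.59, 5.66 and 6.92 TPM in cerebellum and at 10.6, 14.1 and 11.6 TPM in forebrain (-0.89, adjusted p = 0.00296). Ccna2 (-0.74), Prc1 (-1.14), Ube2c (-0.79), Bub1b (-0.80), Kif11 (-0.50) and the mitotic kinase gene Cdk1 (-0.56) were also lower. For Ccnb1, Ccnb2 and Top2a each cerebellar library was below each forebrain library, as was also the case for P2ry12, which did not pass. Mki67, the proliferation marker, had a log2 difference of -0.45 and did not pass (adjusted p = 0.1). Of 48 genes of the G1/S transition, 3 were lower, Rrm2 (-0.83), Ccne1 (-0.75) and Ccne2 (-0.52), a share near the 3.42% of all genes, and the median was -0.11. That count was 0 without cerebellum replicate 2 or forebrain replicate 3 and 1 without cerebellum replicate 1 or forebrain replicate 2. Most G2/M genes were expressed at low levels, and the count was 8 to 12 without any single CSF-1 library, 10 without a filter on low values, at a minimum of 5 TPM or with only the 6 libraries fitted, 31 with transcripts of 1000 nt or more and 5 without the pair with the highest length floor.

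Many promoters of G2/M genes hold a cell cycle genes homology region, the element through which the DREAM complex keeps them silent in resting cells. It was searched as TTTGAA on both strands in the same promoters, and 3 are shown with the match in capitals and 30 bases on either side.
Cdk1, chr10:69352948-69353013, minus strand: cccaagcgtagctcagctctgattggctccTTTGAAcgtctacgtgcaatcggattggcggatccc
Ccnb2, chr9:70421686-70421751, minus strand: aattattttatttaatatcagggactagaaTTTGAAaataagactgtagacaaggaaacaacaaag
Top2a, chr11:99024333-99024398, minus strand: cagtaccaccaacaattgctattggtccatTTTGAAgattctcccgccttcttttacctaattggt

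The 6 letters were found in 11 of the 17 lower G2/M genes with a promoter in the table and in 21 of the 26 members that did not pass. They were found in 20.2% of all 27025 symbols, since so short a motif is common.

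Enzymes of cholesterol and fatty acid synthesis were higher in cerebellum where they passed. Sterol synthesis is driven by the transcription factor SREBP2. Of 32 tested, 12 were higher, 0 lower and 20 not called, beside 3.29% of all genes higher, with a median log2 difference of 0.29. Scd2, the stearoyl-CoA desaturase gene of the brain, was at 28.6, 27.3 and 25.9 TPM in cerebellum and at 12.4, 15.2 and 14.3 TPM in forebrain (log2 difference 0.92, SE 0.10, adjusted p = 0.000273). Sc5d (0.42), Fads1 (0.35), Lss (0.46), Sqle (0.29), Fasn (0.50), Hmgcs1 (0.31), Fdft1 (0.30), Cyp51 (0.44) and Idi1 (0.29) were higher too. The direction held in each fit, but the count was 5 and 6 without cerebellum replicates 1 and 2, 3 and 7 without forebrain replicates 1 and 3, and 3 without the pair with the highest length floor. A sterol regulatory element, searched as TCACNCCAC on both strands, was found in the promoter of 1 of the 6 higher genes with an entry, Hmgcs1, in 0 of 18 others of the list and in 1.44% of all symbols.

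Genes of lipid handling and LXR targets, a list that also holds genes of lipid uptake and storage, were mostly lower in cerebellum where they passed. LXR signalling acts against sterol excess. Of 29 tested, 6 were lower, 2 higher and 21 not called, the higher ones being Lpl and Apoe. Ch25h, whose product 25-hydroxycholesterol holds back SREBP processing, was at 116, 115 and 121 TPM in cerebellum and at 208, 229 and 263 TPM in forebrain (log2 difference -0.98, SE 0.09, adjusted p = 0.00011). Nr1h3, the gene of the nuclear receptor LXR alpha, was at 15.2, 17.2 and 16.1 TPM in cerebellum and at 35.1, 31.6 and 38.1 TPM in forebrain (-1.06, adjusted p = 0.000341). Abcg1 (-0.61), Pltp (-0.35), the scavenger receptor gene Cd36 (-0.35) and the lipid droplet gene Plin2 (-0.21) were the other lower genes. The median of the list was 0.08, on the other side of 0 from most of its calls.

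**Figure D4:**
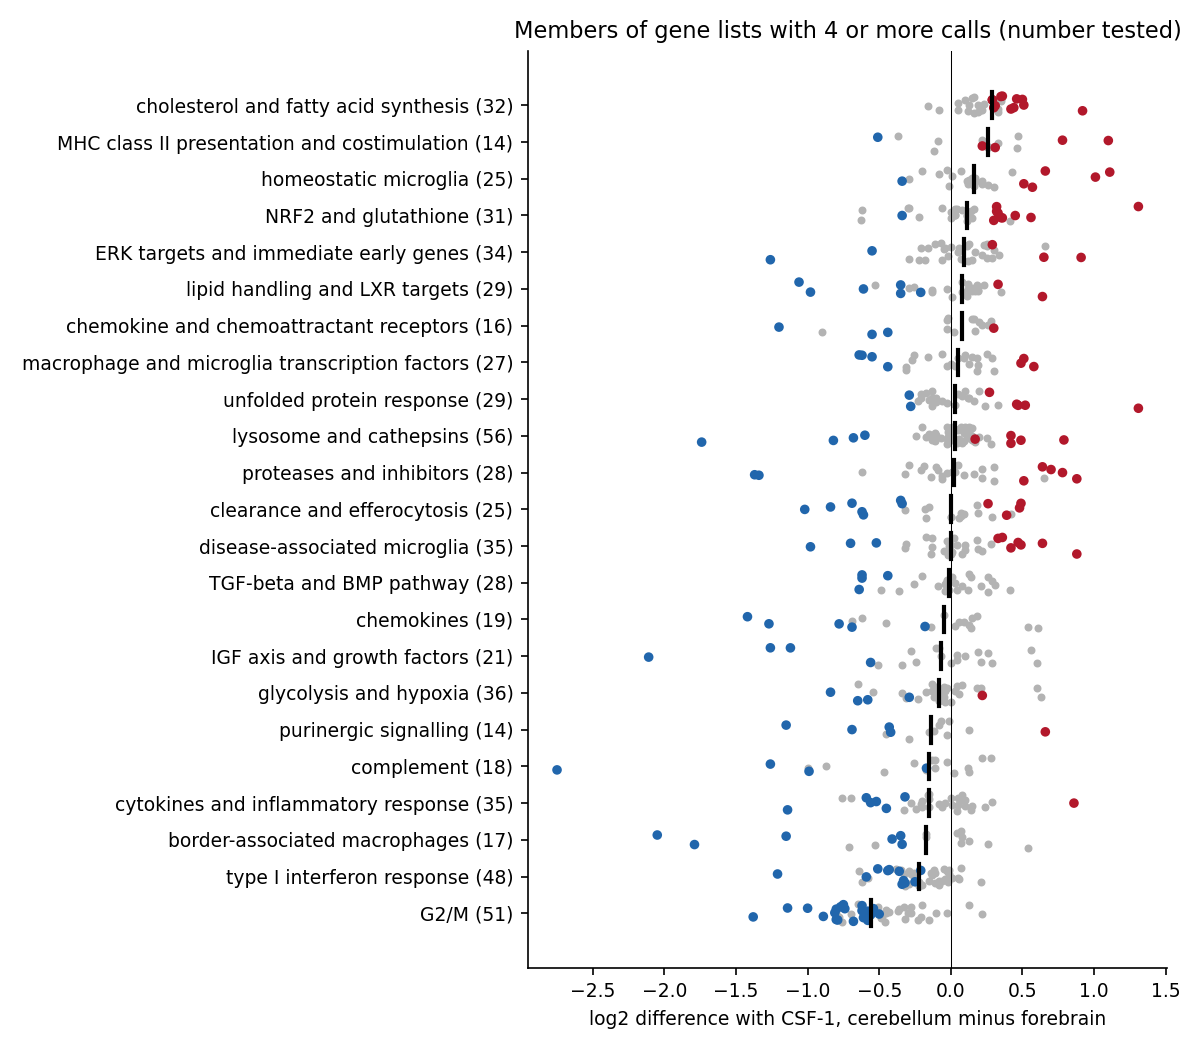
Regional log2 difference (cerebellum minus forebrain, with CSF-1) of each tested member of the gene lists with 4 or more calls, the number tested in brackets. Red and blue points passed the test, grey points did not, and black bars are the medians. The G2/M and interferon lists have calls only on the lower side, and the cholesterol and fatty acid list has calls only on the higher side.

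Antioxidant genes under the transcription factor NRF2 were higher where they passed, with 1 exception. Of 31 tested, 9 were higher, 1 lower and 21 not called, beside 3.29% and 3.42% of all genes, and the median was 0.11. Beside Slc7a11, the autophagy receptor gene Sqstm1 was at 1736, 1841 and 1706 TPM in cerebellum and at 1195, 1319 and 1343 TPM in forebrain (log2 difference 0.45, SE 0.05, adjusted p = 0.000744). Gclm, the regulatory subunit of the first enzyme of glutathione synthesis, was at 747, 730 and 704 TPM in cerebellum and at 580, 554 and 583 TPM in forebrain (0.35, SE 0.04, adjusted p = 0.000744). Its catalytic partner Gclc (0.32), Nqo1 (0.56), Srxn1 (0.36), Txnrd1 (0.30), Gstm1 (0.33) and the catalase gene Cat (0.32) were higher, and Gpx3 was lower (-0.34). The higher count was 5 without cerebellum replicate 1 or forebrain replicate 1, and 0 were lower without any of the cerebellar replicates or forebrain replicate 1 or 2.

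Stress and metabolic genes divided by gene. In the unfolded protein response, 5 of 29 were higher and 2 lower. The higher ones were Slc7a11, Trib3 (0.52), Chac1 (0.47), Phgdh (0.46) and Edem1 (0.27), of which the first 4 are known targets of the amino acid response factor ATF4, and the chaperone genes Sdf2l1 (-0.29) and Pdia6 (-0.28) were lower. The higher count fell to 2 or 3 without any of the 6 CSF-1 libraries apart from cerebellum replicate 3, and the lower count was 0 or 1 without any of the 6. In glycolysis and hypoxia, the lactate exporter gene Slc16a3 (-0.58), Ldha (-0.29), P4ha2 (-0.65) and Aldoc (-0.84) were lower and Hk3 (0.22) was higher, of 36 tested. Aldoc is also an astrocyte marker, and 2 genes were lower without cerebellum replicate 3 or forebrain replicate 2. The higher count was 0 without cerebellum replicate 1 or 2 or forebrain replicate 1 or 3. The iron transporter genes Slc11a1 (0.31) and Slc39a14 (0.44) were higher, and Lcn2 was the lower gene of the 16 in that list. Neither transporter gene passed without cerebellum replicate 1 or forebrain replicate 1.

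Lysosomal genes showed no common direction, with 5 higher and 4 lower of 56 tested and a median of 0.03. The protease genes among them were lower or higher by gene. Ctsc, the cathepsin that activates granule proteases, was at 721, 746 and 745 TPM in cerebellum and at 1345, 1298 and 1275 TPM in forebrain (log2 difference -0.82, SE 0.06, adjusted p = 3.25e-05). Ctsk, Ctsf (-0.68) and the acid phosphatase gene Acp5 (-0.60) were lower as well, whereas Ctse (0.79), Gaa (0.42), Atp6v0d2 (0.42), Cln3 (0.17) and Mitf (0.49), a transcription factor of lysosomal genes, were higher. The higher count was 2 without cerebellum replicate 1 or 2 or forebrain replicate 1, and 3 without forebrain replicate 2.

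Among matrix proteases and their inhibitors, 5 of 28 were higher and 2 lower. Mmp14, the membrane-bound collagenase, was at 128, 140 and 131 TPM in cerebellum and at 77.4, 69.4 and 83.7 TPM in forebrain (log2 difference 0.78, adjusted p = 0.000744), while the gelatinase gene Mmp9 was at 0.935, 1.71 and 1.11 TPM in cerebellum and at 5.01, 4.04 and 5.30 TPM in forebrain (-1.37, adjusted p = 0.000873). Timp1, the gene of a metalloproteinase inhibitor, was lower (-1.34). Mmp13 (0.64), Mmp8 (0.70), Serpinb9 (0.51) and Cst7 were higher, and 3 were higher without cerebellum replicate 1, forebrain replicate 2 or forebrain replicate 3. The lower count was 1 without cerebellum replicate 1 or 3 or forebrain replicate 2. Of 15 integrin genes, Itgal, the alpha chain of LFA-1, was lower at 16.5, 15.5 and 14.2 TPM against 38.4, 39.8 and 39.1 TPM (-1.29, SE 0.08, adjusted p = 9.69e-06), Itga8 was lower (-0.65), and Itgav was higher. Itga8 lost its call in 10 of 19 alternatives, among them each that left out a CSF-1 library. Hbegf (-1.26), Igfbp3, Igfbp4 (-0.56) and Igfbp5 (-1.12) were the lower ones of 21 growth factor and IGF axis genes, and 0 were higher.

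Transcription factor genes gave a regional pattern at the Id family, inhibitors of basic helix-loop-helix factors that BMP and TGF-beta signals induce. Id1 was at 39.2, 48.7 and 48.7 TPM in cerebellum and at 68.3, 67.3 and 74.9 TPM in forebrain (log2 difference -0.62, adjusted p = 0.0017). Id2 was at 212, 219 and 225 TPM in cerebellum and at 309, 295 and 288 TPM in forebrain (-0.44, SE 0.05, adjusted p = 0.000513), and Id3 had -0.64 (adjusted p = 0.000744). Smad6, an inhibitor of BMP signalling and itself a target of it, was lower too (-0.62), so 4 of 28 genes of the TGF-beta and BMP pathway were lower and 0 higher, while the median of that list was -0.01. Of 27 macrophage transcription factor genes, 3 were higher, Runx1 (0.58), Mef2c and Mitf, and 4 were lower, Klf2 (-0.55) and the 3 Id genes. Egr1, an immediate early gene of growth factor signalling, was at 45.8, 49.0 and 42.8 TPM in cerebellum and at 29.3, 30.2 and 27.0 TPM in forebrain (0.65, adjusted p = 0.0122), and Egr2 was at 11.5, 9.43 and 8.06 TPM against 4.31, 4.08 and 5.57 TPM (0.91, adjusted p = 0.00533). Dusp5 was higher (0.29) and Klf2 and Hbegf were lower, of 34 genes in that list. Without cerebellum replicate 1 or 2, 1 of the macrophage factor genes was higher. Egr1 lost its call without cerebellum replicate 2, which left 1 higher gene in the list of immediate early genes, and Id1 with transcripts of 1000 nt or more.

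Of 11 ligand, partner and growth factor receptor genes tested, limma called 1, the granulocyte colony-stimulating factor receptor gene Csf3r. It was at 40.7, 44.1 and 44.0 TPM in cerebellum and at 35.4, 32.2 and 31.4 TPM in forebrain (log2 difference 0.37, SE 0.06, adjusted p = 0.00466). The MS4A family had 1 call among 8, Ms4a6b (-0.54). Of 16 genes of heat shock and dissociation stress, limma called 0, with 0 at an unadjusted p under 0.05 and the smallest adjusted p at 0.302 for Dnaja1. Of 12 mitochondrially encoded genes limma also called 0, with 3 at an unadjusted p under 0.05 and the smallest adjusted p at 0.0976 for mt-Rnr2.

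The regional comparison with IL-34 shares no library with the one with CSF-1, but the labels do not say whether a culture was split between the ligands, so the cultures may not be independent. Both comparisons also use the same estimate of spread for each gene, so calls with 1 ligand are not independent of calls with the other. With IL-34, 1675 of the 12419 genes passed (13.5%), 654 higher (5.27%) and 1021 lower (8.22%) in cerebellum. Unlike with CSF-1, the length floor separated the regions, at 503, 491 and 580 nt in cerebellum and 669, 632 and 621 nt in forebrain. Region and uneven recovery of short transcripts therefore cannot be told apart with IL-34, and the interaction test below shares this limit. With median-of-ratios scaling 987 were higher and 1043 lower, and with transcripts of 1000 nt or more 520 were higher and 1720 lower. Leaving out cerebellum IL-34 replicate 1 or 2 gave 1029 or 838 calls, and leaving out forebrain IL-34 replicate 2 or 3 gave 1077 or 1056. Of the 833 genes called with CSF-1, 793 (95.2%) had the same direction with IL-34, and 501 were called in the same direction, which is 60.1% of the calls with CSF-1 and 29.9% of those with IL-34. Across the 833 genes, Pearson's r between the 2 sets of log2 differences was 0.919, and across all genes tested it was 0.379. Genes share libraries and are no replicates, so no p is given. Of the 30 genes with the largest differences, 29 were also called with IL-34 in the same direction. Vsig4 had -2.75 with CSF-1 and -2.90 with IL-34, Folr2 -1.79 and -1.71, Kcnn4 1.94 and 1.85, Slc7a11 1.31 and 1.24, and Ttr 4.13 and 4.03. The exception was Ccnb1, with -1.38 and -0.60 (adjusted p = 0.064 with IL-34).

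**Figure D5:**
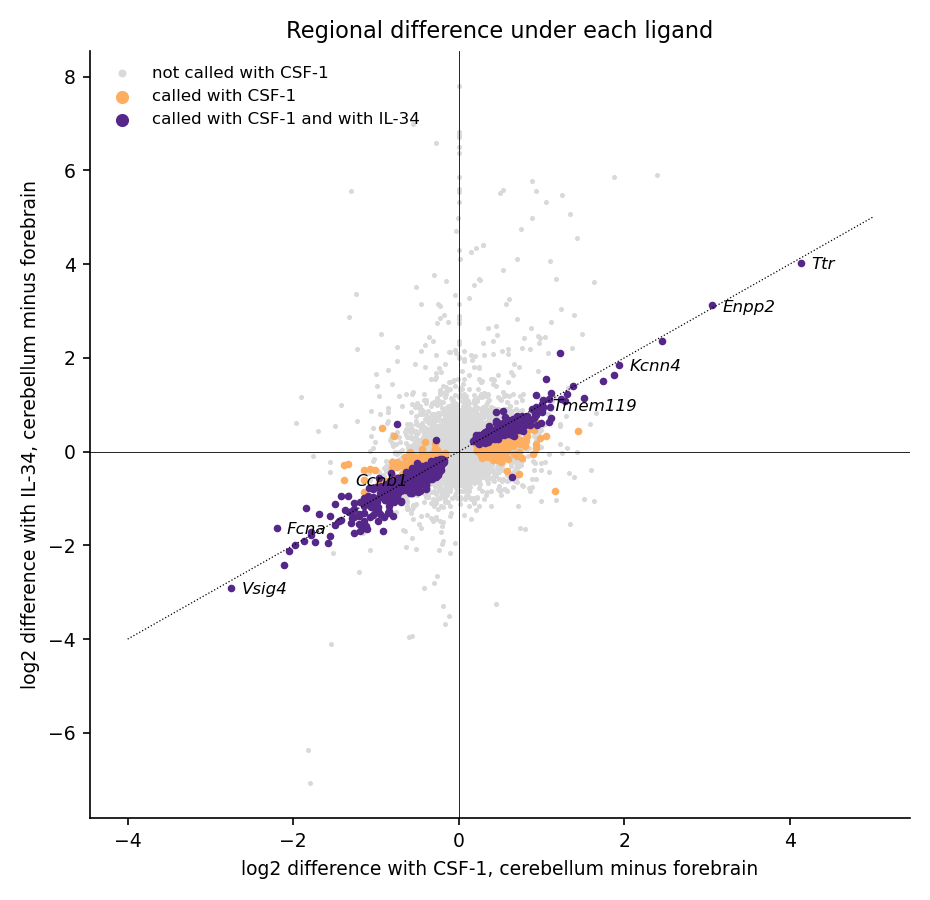
Regional log2 difference (cerebellum minus forebrain) with CSF-1 on the horizontal and with IL-34 on the vertical axis, each point a gene. Purple genes were called with both ligands, orange genes with CSF-1 and not with IL-34, grey genes not with CSF-1. The dotted line is equality, near which Ttr, Kcnn4 and Vsig4 lie.

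Several gene lists had their calls on the same side with IL-34, and others did not. The interferon list had 30 lower and 2 higher genes of 48 with IL-34 and a median of -0.34, and the G2/M list had 19 lower and 1 higher of 51. The cholesterol and fatty acid list had 7 higher and 0 lower, with a median of 0.20, and the border-associated macrophage list had 9 lower and 0 higher. The G1/S list, with 3 lower and 0 higher genes with CSF-1, had 1 lower and 4 higher with IL-34. The chemokine list had 6 lower and 1 higher with IL-34, while its median was -0.05 with CSF-1 and 0.20 with IL-34. Ccl4 had -0.78 with CSF-1 and 0.33 with IL-34 (adjusted p = 0.195 with IL-34). Whether a regional difference itself changed with the ligand was tested as an interaction, which called 18 of 12419 genes (0.145%), with 1505 at an unadjusted p under 0.05. None of the 30 genes with the largest differences was among them, and their smallest adjusted interaction p was 0.328. Of the 18, 12 were listed at 0 in all CSF-1 libraries and had a mean transcript length of at most 648 nt, the range in which recovery differed between libraries. The interaction count was 29 without cerebellum CSF-1 replicate 3, 132 without cerebellum IL-34 replicate 3 and 1 with transcripts of 1000 nt or more.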

How the data were processed

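RNA of 12 libraries of primary mouse microglia was analysed, 3 in each of 4 groups of region and ligand. The authors deposited TPM per Ensembl transcript, made with kallisto 0.43.0 and GRCm38 per the submitters' processing notes. The annotation release is not given in the sources, nor is any correction of bias, and per the labels' protocols cDNA came from the SMART-Seq v4 kit. 1 protocol in the labels, that of RNA extraction, refers to human tissue, whereas organism and cell type are labelled as mouse.

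TPM of 115879 transcripts was summed over 46262 genes. Genes that reached 1 TPM in 3 or more of the 12 libraries were tested on log2(TPM + 1) with limma 3.58.1 in R 4.3.3, using 4 group means, a variance trend and 8 residual degrees of freedom. Adjusted p-values are two-sided Benjamini-Hochberg values over 12419 genes, called under 0.05. TPM keeps no depth, so no counting interval is given. The labels number the libraries within each group, and p-values measure the spread between these libraries. The fit was tested on simulated data.

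Lengths and positions came from GENCODE M21, in which 98.6% of transcripts matched, and promoters from RefSeq (GRCm38.p6). The 30 genes with the largest differences are the 15 highest and 15 lowest called genes whose mean reached 5 TPM in the region where it was higher, with no overlap between libraries and no symbol of a predicted gene, and for each of 31 lists up to 4 members with the smallest p were named by rule. Further list members were named after their values were seen. The comparison and the lists were chosen with earlier results of these data known. Alternatives covered pseudocount, filter, scaling, transcript length, variance model, weights, replicate block, the libraries fitted and leaving out each library. The length floor as a covariate, removal of length and GC trends (lowess, span 0.3) and leaving out the pair of libraries with the highest length floor were chosen after seeing the data. Some members of the lists are counted and not reported here by name.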

Additional observations from a re-analysis of the deposited data

Results flagged for a closer look

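The regional difference of 6 genes with values above 0 changed with the ligand by limma's interaction test (adjusted over 12419 genes, 12 libraries). All 6 are listed because their effects with CSF-1 and with IL-34 differ. With transcripts of 1000 nt or more the interaction test called 1 gene in all, so most of these 6 calls were not kept there. Mrps5, a mitochondrial ribosomal protein gene, had a regional log2 difference of -0.40 with CSF-1 and 1.04 with IL-34, a difference of -1.44 (adjusted p = 0.0345). Focad, the gene of focadhesin, had 0.05 and 1.44, a difference of -1.39 (adjusted p = 0.0186). Plekhm2, a lysosome transport gene, had -0.11 and 0.70, a difference of -0.81 (adjusted p = 0.0393). Nup98, a nuclear pore gene, had 0.41 and -0.17, a difference of 0.58 (adjusted p = 0.025). A230004M16Rik had 0.64 and -0.54, a difference of 1.18 (adjusted p = 0.0486). Gm6916, a predicted gene with a mean transcript length of 828 nt, had -0.17 and -3.68, a difference of 3.51 (adjusted p = 0.00127).

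Taf8, Sdhaf4 and A230004M16Rik were the 3 genes called in opposite directions between the regions with CSF-1 and with IL-34.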

How the results depend on the processing

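The count of 833 genes with CSF-1 was 1450 with transcripts of 1000 nt or more (743 shared with the 833), 456 with only the 2 groups fitted, 297 without the pair of libraries with the highest length floor, and 413 to 604 without any single library. With the replicate number as a block it was 613. The deviations of same-numbered CSF-1 libraries had r = -0.217, 0.245 and -0.454. The highest r, 0.569, was that of the pair with the highest length floor. Since uneven recovery also enters these deviations, they cannot settle whether equal numbers mark a shared preparation. The count with IL-34 was 838 to 1772 without any single library and 1438 with the replicate block, and that of the interaction was 1 with transcripts of 1000 nt or more, 12 to 132 without any single library and 16 with the block. Other settings stayed within 1.5 times, for CSF-1 from 593 without a filter to 1102 with median-of-ratios scaling, which moved the median of all genes from 0.0307 to -0.000528. Of 112 named genes called, 77 were called in each of 20 alternatives that measured them, 35 lost the call in at least 1, and 0 reversed. Of the 30 largest, the 28 other than Tns1 and Emilin1 lost no call where measured. Depth is unknown in TPM, and genes with short transcripts or levels near 1 TPM are the least certain.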

Other observations

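Other genes, chosen after their values were seen and, but for Fcgr3 among the macrophage markers, outside the lists, also separated the regions with CSF-1. Ecm1, an extracellular matrix gene, was at 63.5, 68.5 and 60.3 TPM in cerebellum and at 149, 145 and 150 TPM in forebrain (log2 difference -1.19, limma adjusted p = 2.23e-05). S100a6, a calcium-binding protein gene, had -1.07, Ly9, a receptor gene of the SLAM family, -1.04, and Akr1b8, an aldo-keto reductase gene, -0.98. Maoa, the gene of monoamine oxidase A, was at 3.34, 3.25 and 3.21 TPM in cerebellum and at 9.15, 9.17 and 9.25 TPM in forebrain (-1.26, adjusted p = 1.79e-05). Cd207, which encodes langerin of Langerhans cells, was at 0.536, 0.511 and 0.707 TPM in cerebellum and at 5.51, 4.86 and 3.89 TPM in forebrain (-1.85, adjusted p = 0.00021). Fcgr3, a low-affinity receptor gene for immunoglobulin G, had -0.50 (adjusted p = 0.000588).

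Neat1, the long noncoding RNA of nuclear paraspeckles, was higher, at 583, 567 and 537 TPM in cerebellum and 313, 332 and 327 TPM in forebrain (log2 difference 0.79, adjusted p = 0.00127). The transcription factor gene Runx3 was at 4.09, 4.60 and 4.49 TPM in cerebellum and at 1.80, 1.53 and 1.70 TPM in forebrain (1.01, adjusted p = 0.00151). Thbs1, the gene of thrombospondin-1, had 0.79, the adaptor gene Stap1 0.80 and Procr, the endothelial protein C receptor gene, 0.83. Each of these 12 genes had the same direction with IL-34, where all of them passed as well.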
